A study of Mus musculus with 16 samples.

Results

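The mitochondrial ribosomal protein genes were taken as all gene symbols that begin with Mrpl (large subunit) or Mrps (small subunit) followed by a number, with or without a final a, b or c. There were 78 such genes among the 19108 listed, 49 for the large and 29 for the small subunit, and all 78 passed the filter on low counts that left 13666 genes for testing. They were measured in quadriceps muscle of C57BL/6 mice aged 6 months on a chow diet, in 4 groups of 4 mice: wild-type (WT) females, WT males, and females and males of the genotype ANT1(Tg)/+ (Tg), which overexpress Ant1. Ant1, now named Slc25a4, encodes the adenine nucleotide carrier by which muscle mitochondria take up ADP and release ATP. The promoter that drives the transgene is not given in the sources used here. A gene is said to have risen, fallen or been called where its adjusted p, over all tested genes, was under 0.05.

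The mitochondrial ribosome translates the few messages that mitochondrial DNA encodes, all of them for subunits of the respiratory chain and ATP synthase. Its RNA comes from mitochondrial DNA, whereas its proteins are made from nuclear genes in the cytosol, imported, and built onto that RNA with the help of GTPases, helicases and RNA-modifying enzymes. Some proteins take the position of a bacterial ribosomal protein, and others hold positions that bacterial ribosomes lack. The symbol is not always the place: Mrps18a and Mrps30 carry small-subunit names, but their proteins sit in the large subunit in ribosome structures, and Mrps36 is now regarded as a part of the 2-oxoglutarate dehydrogenase complex.

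Because ribosomal protein genes of mitochondria are known for promoters with sites for ETS-family factors (which include GABP), NRF1 and YY1, the RefSeq promoter windows of the GRCm38.p6 build, 250 bases before to 50 after the start, were searched on both strands. RefSeq gave 75 windows for 69 of the 78 genes. The lines below show 30-base stretches around the ETS letters CCGGAAG, or CTTCCGG where they lie on the other strand, written 5′ to 3′ in the direction of the gene with the motif in capitals. They were chosen to set genes whose transcript rose in Tg (Mrps18b, Mrpl3, Mrps27) beside genes whose transcript fell (Mrpl18, Mrpl48) or was not called (Mrps18a).
Mrps18b, minus strand, chr17:35916391-35916420: tgtcccgagcatgcgcagtcgctCTTCCGG
Mrpl3, plus strand, chr9:105053237-105053266: ttgagaaacggaCCGGAAGtggcccggctg
Mrps27, plus strand, chr13:99344726-99344755: gtggtaggaccaCTTCCGGcggaggcgggc
Mrpl18, minus strand, chr17:12916312-12916341: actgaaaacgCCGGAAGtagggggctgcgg
Mrpl48, minus strand, chr7:100583147-100583176: gggttttaaaaaCTTCCGGaaccaagatgc
Mrps18a, plus strand, chr17:46110966-46110995: cacacccctgctCCGGAAGcggaagtgcac
The same letters were thus found in windows of genes in all 3 classes. Mrpl48 has 4 windows in RefSeq, of which 1 held the letters and 3 did not, and the start of that window lies 25.2 kilobases inside the gene from its annotated 5′ end. The YY1 letters AAGATGGC, shown for Mrps18a and Mrps27, lay just downstream of the start.
Mrps18a, plus strand, chr17:46111004-46111033: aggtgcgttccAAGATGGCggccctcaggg
Mrps27, plus strand, chr13:99344789-99344818: tggtgcgctccAAGATGGCggctcccatgg

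The ETS letters were found in 34.7% of the members' windows and in 11.6% of 21262 windows of protein-coding genes. YY1 letters were found in 16.0% against 3.1%, and the NRF1 letters GCATGCGC in 10.7% against 3.5%. The E-box letters CACGTG (9.3% against 7.8%) and the SP/KLF letters GGGCGG (52.0% against 46.2%) were about as common as elsewhere, and the letters TGATGCAA, read by ATF4 with C/EBP proteins, were in 0 of 75 windows against 0.9%. These are shares of windows and not of genes, since windows of the same gene were counted apart. The windows of Mrpl2, a member called higher, overlap each other and all hold the E-box letters. The members' windows held a median of 21 CpG dinucleotides against 13 in all windows. The ETS, NRF1, E-box and SP/KLF letters themselves hold a CpG, and the YY1 letters do not. The part of base composition was not tested. Among members whose transcript was called higher in Tg, 33.3% of 30 windows held the ETS letters, against 35.9% of 39 windows of members not called. YY1 letters were in 6.7% of windows of members called higher and in 25.6% of those not called. A match is a description of the letters and was not tested as a binding site.

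**Figure D1:**
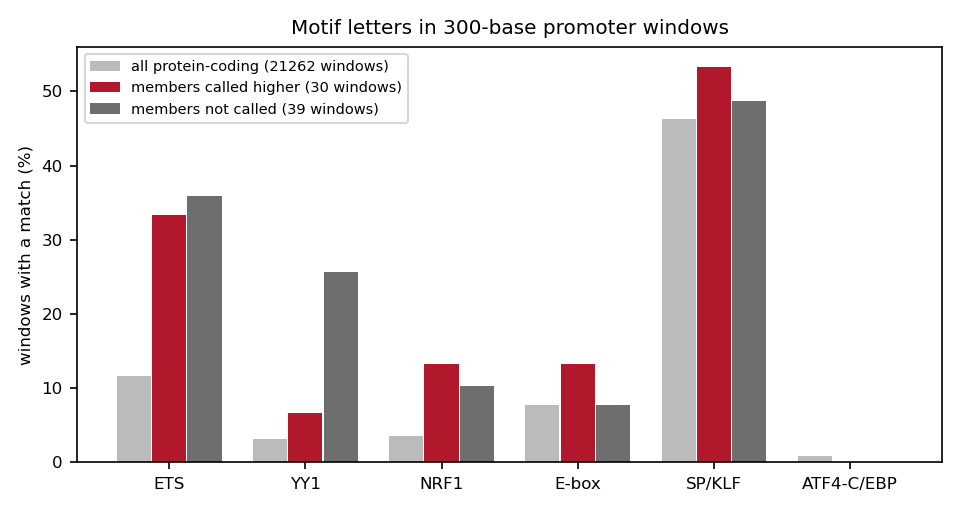
Share of 300-base promoter windows (%) that hold each motif on either strand, for all protein-coding genes, members called higher in Tg and members not called. Windows of the same gene are counted apart. The ETS bars of both member classes stand near 35% beside 11.6% for all genes, and the YY1 bar is at 25.6% for members not called and 6.7% for members called higher.

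Estimated counts per library, in units of 1000000, totalled 17.4 to 30.7, and the 78 genes together took 0.241 to 0.329% of them. Slc25a4 was at 2792 to 3919 counts per 1000000 (CPM) in WT and 8507 to 11040 CPM in Tg libraries, so every library matched its genotype label. The 8 muscle fibre markers summed to 196700 ± 24620 CPM in WT and 165100 ± 25040 CPM in Tg (SD, n = 8 each), with 1 called higher (Myh1) and 2 called lower (Myh4 and Tnnt3), and to at least 139800 CPM in every library. The 9 adipocyte markers summed to 578.5 to 4250 CPM in WT and 488.8 to 2225 CPM in Tg, with 0 of 9 called, and brown adipocyte markers (Ucp1, Cidea, Elovl3) summed to over 5 CPM in WT female 1, WT female 2, WT male 1 and Tg female 4. In bulk muscle, fewer cells of a type and less RNA per cell cannot be told apart. Slow-fibre markers were called higher in 6 of 8 (sums of 46.6 to 132.5 CPM in WT and 68.8 to 1120 CPM in Tg, the highest in Tg female 2). Satellite cell markers summed to 8.65 to 16.2 CPM in WT and 5.66 to 10.2 CPM in Tg, with 1 of 4 called lower and none of the 4 at 0 in all libraries. Of the 2 neutrophil markers 1 was tested, S100a8, and it was called higher at levels near the limit of a count of 0 (0.126 ± 0.0999 CPM in WT and 0.575 ± 0.354 CPM in Tg, SD, n = 8 each). The part of these cells and fibres in the results below was not tested.

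The main comparison asked how the transgene changed each gene, averaged over the sexes. More mitochondrial ribosomal protein transcripts rose than fell in both subunits, and the changes were small. Of the 49 large-subunit genes 21 rose, 3 fell and 25 were not called. Of the 29 small-subunit genes 14 rose, 0 fell and 15 were not called, with 16 at an unadjusted p under 0.05 and 0 called lower by DESeq2 or limma-voom. Of all tested genes 17.2% were called higher and 13.3% lower, so both subunits held more higher calls (42.9% and 48.3%) and fewer lower calls (6.12% and 0%) than the background. The median log2 fold change was 0.15 for the large and 0.18 for the small subunit, beside -0.01 over all tested genes. Single genes ranged from -0.29 to 0.41 in the large and from -0.13 to 0.52 in the small subunit, and 61 of 78 values were above 0. Dropping libraries mattered for the size of the count: without the 2 libraries richest in adipocyte markers (WT female 2 and WT male 1) 29 of the 35 higher calls remained, and without the 4 libraries with brown adipocyte markers 19 remained (10 large, 9 small), with fewer samples in each case. Over all tested genes, 2315 of 13739 were called higher without the 2 libraries and 1966 of 13827 without the 4. Under all 26 alternatives 18 genes were called higher, 9 in each subunit, and the same count was not taken over all tested genes.

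**Figure D2:**
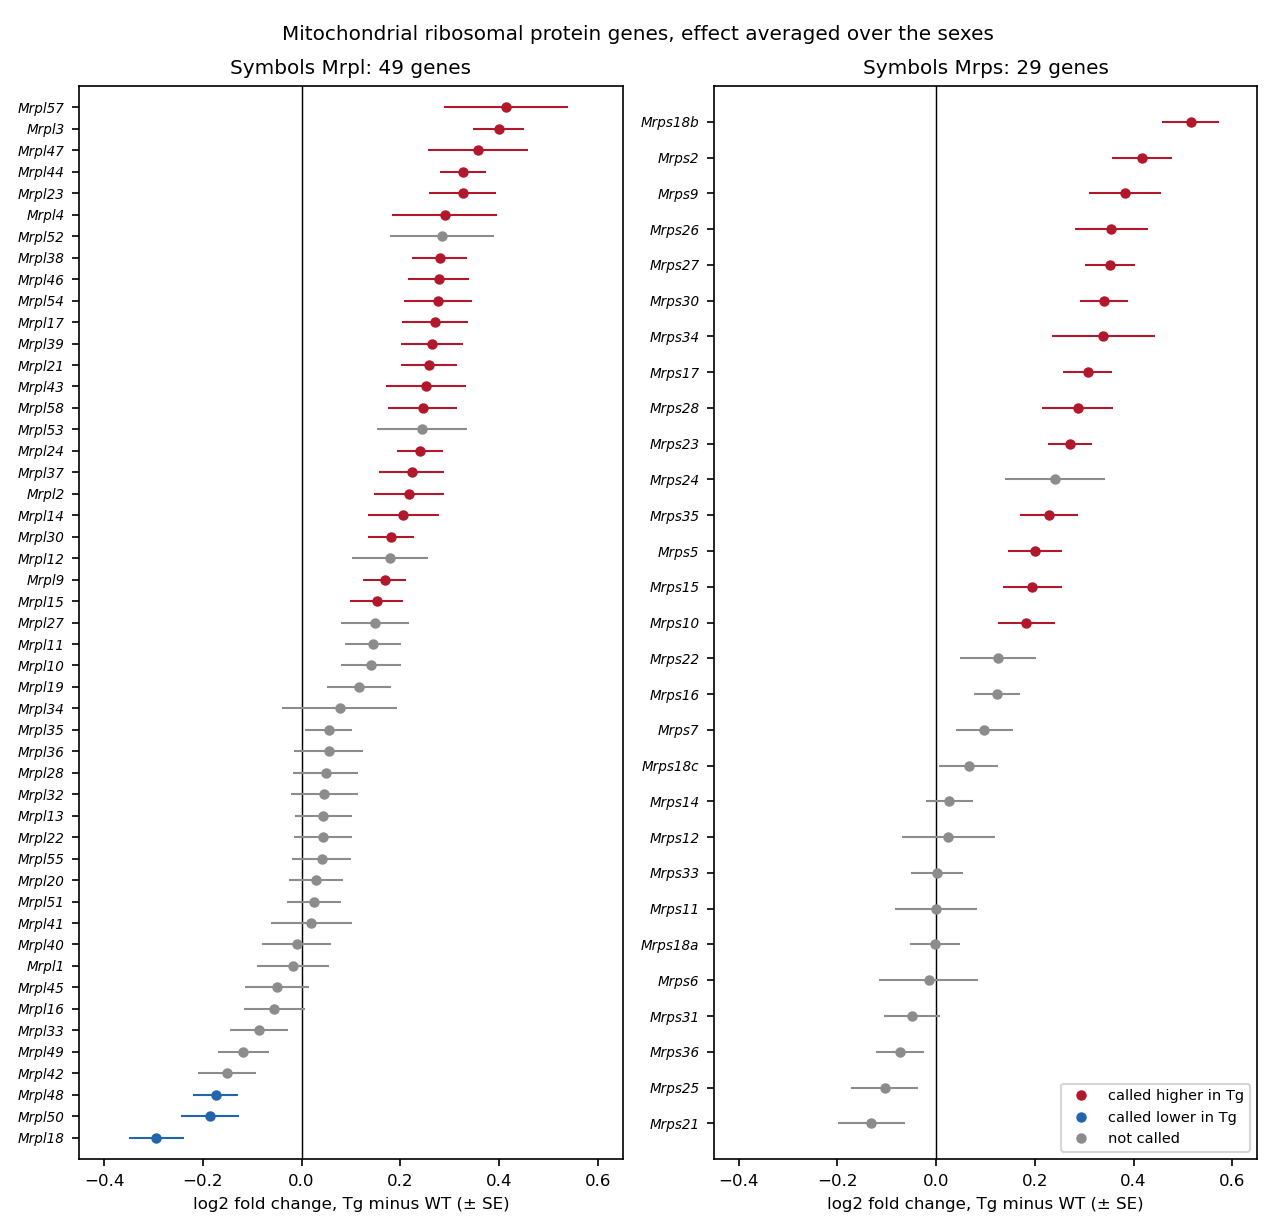
Log2 fold change of each gene, Tg minus WT averaged over the sexes, with its standard error, for 49 Mrpl and 29 Mrps symbols; red is called higher, blue called lower and grey not called. Most points lie right of 0, and the 3 blue points are Mrpl18, Mrpl50 and Mrpl48.

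Among the small-subunit symbols, Mrps18b had the largest increase. Its product belongs to the S18 family but holds a position in the small subunit that bacterial ribosomes lack. WT females read 33.1, 32.6, 31.9 and 40.2 CPM and WT males 32.2, 35.0, 40.05 and 34.0 CPM. Tg females read 50.8, 46.7, 51.8 and 49.8 CPM and Tg males 50.8, 47.8, 51.2 and 50.04 CPM. Each of the 8 Tg libraries lay above each WT library. The difference was 0.52 on the log2 scale (SE 0.06, adjusted p = 5.78e-06), a fold of 1.43, and it was 0.53 in females and 0.50 in males.

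Mrps2, a homologue of a bacterial small-subunit protein, read 16.8, 18.1, 13.9 and 18.3 CPM in WT females and 17.5, 16.7, 16.5 and 17.6 CPM in WT males. Tg females read 20.96, 21.4, 23.3 and 23.1 CPM and Tg males 24.2, 20.8, 23.3 and 23.6 CPM. The groups did not overlap, and the log2 fold change was 0.42 (SE 0.06, adjusted p = 6.5e-05). Mrps9, another bacterial homologue whose tail reaches towards the transfer RNA, ranged from 18.9 through a median of 23.7 to 27.5 CPM in WT and from 27.5 through 30.3 to 33.0 CPM in Tg. The lowest Tg library (27.54 CPM) was just above the highest WT library (27.49 CPM), and the log2 fold change was 0.38 (SE 0.07, adjusted p = 0.000785).

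Among other proteins without a bacterial counterpart at their position, Mrps26 had a median of 20.9 CPM in WT (14.2 to 22.2) and 25.4 CPM in Tg (22.8 to 29.3), with a log2 fold change of 0.36 (SE 0.07). Mrps27, a protein with pentatricopeptide repeats that bind RNA, had 27.7 CPM (23.8 to 30.7) against 35.7 CPM (32.7 to 37.0), a log2 difference of 0.35 (SE 0.05, adjusted p = 5.76e-05). Mrps30, whose protein lies in the large subunit, had 24.6 CPM (22.7 to 26.9) against 31.04 CPM (29.9 to 34.5), a log2 difference of 0.34 (SE 0.05, adjusted p = 5.58e-05). In these genes every Tg library was above every WT library. The other members called higher were Mrps34 (0.34), Mrps17 (0.31), Mrps28 (0.29), Mrps23 (0.27), Mrps35 (0.23), Mrps5 (0.20), Mrps15 (0.20) and Mrps10 (0.18). Mrps28 was not called without the 4 libraries with brown adipocyte markers (adjusted p = 0.0601).

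Among the large-subunit symbols, Mrpl3 had the lowest adjusted p. Its product is the homologue of a bacterial protein that reaches towards the peptidyl transferase centre, where the peptide bond forms. WT females read 32.7, 37.3, 30.3 and 32.6 CPM and WT males 31.2, 35.1, 33.8 and 33.8 CPM. Tg females read 46.2, 46.3, 48.2 and 43.7 CPM and Tg males 45.4, 38.5, 42.7 and 41.3 CPM. The groups did not overlap, and the log2 difference was 0.40 (SE 0.05, adjusted p = 2.4e-05). Mrpl44, which has an RNase III-like fold, ranged from 25.3 through 26.5 to 28.1 CPM in WT and from 29.5 through 33.5 to 36.6 CPM in Tg. Its log2 fold change was 0.33 (SE 0.05, adjusted p = 5.53e-05).

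Mrpl57 showed the largest log2 fold change of its subunit, 0.41 (SE 0.13, adjusted p = 0.0206), but 1 library carried part of it. WT males read 15.3, 13.9, 16.1 and 18.04 CPM and Tg males 18.8, 33.6, 17.02 and 21.02 CPM, so that Tg male 2 stood far above the others. Without Tg male 2 the log2 fold change was 0.29 and still called (adjusted p = 0.0233), and without WT female 2 and WT male 1 it was not called (adjusted p = 0.0598), nor without the 4 libraries with brown adipocyte markers (0.35, adjusted p = 0.157). In Tg male 2 Mrpl47, a homologue of a bacterial protein near the exit of the peptide tunnel, was the lowest of the Tg males at 8.04 CPM beside 14.04, 13.5 and 13.7 CPM. Its log2 fold change was 0.36 (SE 0.10, adjusted p = 0.0128), and 0.44 without Tg male 2. Without the same 4 libraries it was not called (adjusted p = 0.117).

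Mrpl23, a bacterial homologue at the tunnel exit, rose by 0.33 on the log2 scale (SE 0.07, adjusted p = 0.00149), with 47.4 CPM (43.8 to 58.2) in WT and 61.9 CPM (56.4 to 70.5) in Tg, ranges that overlapped. Mrpl4 had 0.29 (SE 0.11, adjusted p = 0.0493) and lost its call in 18 of 26 alternatives. The other members that rose were Mrpl38 (0.28), Mrpl46 (0.28), Mrpl54 (0.28), Mrpl17 (0.27), Mrpl39 (0.26), Mrpl21 (0.26), Mrpl43 (0.25), Mrpl58 (0.25), Mrpl24 (0.24), Mrpl37 (0.22), Mrpl2 (0.22), Mrpl14 (0.21), Mrpl30 (0.18), Mrpl9 (0.17) and Mrpl15 (0.15). Mrpl58 releases stalled peptides from the ribosome. Mrpl12, the stalk protein known to bind the mitochondrial RNA polymerase, was not called, at 0.18 (SE 0.08, adjusted p = 0.0891).

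Every Tg library lay above every WT library in 4 of 49 large-subunit genes (Mrpl3, Mrpl24, Mrpl38, Mrpl44) and in 7 of 29 small-subunit genes (Mrps2, Mrps9, Mrps18b, Mrps23, Mrps26, Mrps27, Mrps30). The same held for 715 of all 13666 tested genes. Taken within each sex, the groups were apart in the upward direction in 8.16% of the large and 24.1% of the small subunit, beside 6.89% of all tested genes, so the large subunit was close to the background by this count. In the downward direction the shares were 0% and 0% beside 3.94%.

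**Figure D3:**
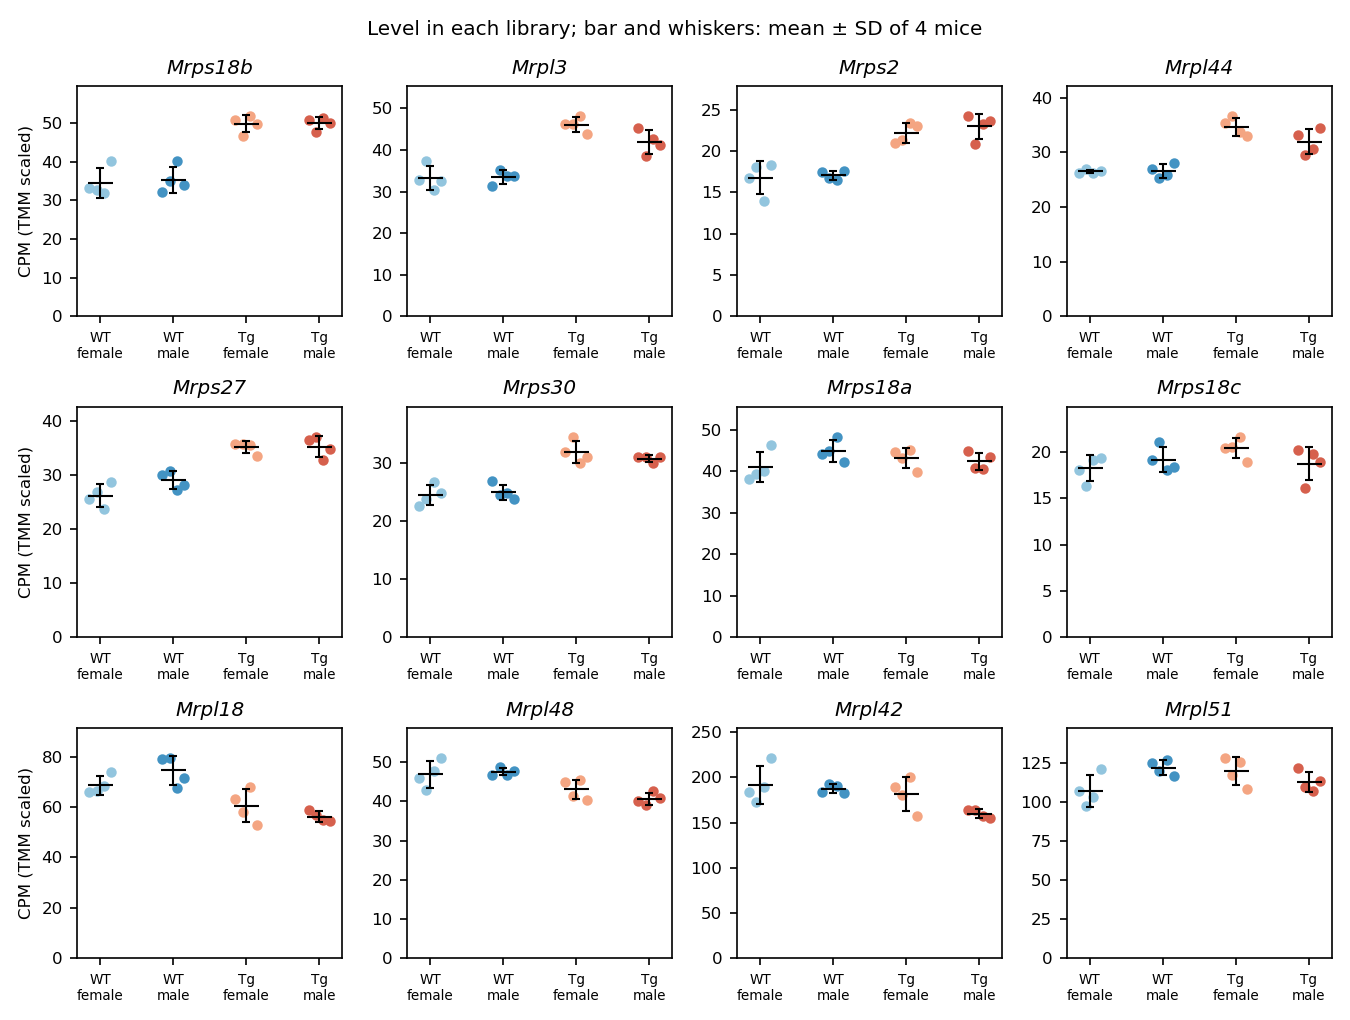
CPM in each of the 16 libraries for 12 genes, by genotype and sex, with the mean and SD of 4 mice. In Mrps18b, Mrpl3, Mrps2, Mrpl44, Mrps27 and Mrps30 all Tg points lie above the WT points, whereas Mrpl18 lies lower in Tg and Mrps18a is level.

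The 3 transcripts that fell belong to the large subunit. Mrpl18, the homologue of a bacterial protein that binds the 5S ribosomal RNA, read 65.9, 66.4, 68.2 and 74.01 CPM in WT females and 79.2, 79.4, 67.7 and 71.6 CPM in WT males. Tg females read 63.4, 57.96, 67.8 and 52.9 CPM and Tg males 58.8, 56.9, 54.8 and 54.3 CPM. Males of the genotypes did not overlap, whereas Tg female 3 lay above WT female 1 and WT female 2. It fell by 0.29 on the log2 scale (SE 0.06, adjusted p = 0.00086) and was called lower under all 26 alternatives. Mrpl50 fell by 0.19 (SE 0.06, adjusted p = 0.0257), and the call was lost with library totals only and without Tg female 2 or Tg female 4. Mrpl48 fell by 0.17 (SE 0.05, adjusted p = 0.00783), lost with library totals only (adjusted p = 0.142).

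Reads of some of these genes could be shared with a neighbour, since whether the counting used strand is not given in the sources used here. In the GENCODE M21 annotation of mm10, exons of Mrpl18 overlap those of Tcp1 on the other strand, exons of Mrpl48 those of Rab6a, and exons of Mrpl47 those of Actl6a and Ndufb5. Exons of Mrps18b, Mrps26 and Mrps27 overlap non-coding or predicted genes on the other strand. Those of Mrps30 overlap B430218F22Rik, annotated as protein-coding, on the other strand, and Mrps18c shares exons with a predicted gene on its own strand. Other members overlap a neighbour too, among them Mrpl24 with Rrnad1, Mrpl21 with Ighmbp2, Mrpl43 with Twnk and Mrpl19 with Gcfc2 on the other strand. Mrpl33 shares exons with a predicted gene on its own strand. The levels of all these genes are to that extent uncertain. Mrps18b lies at chr17:35910379-35916389 and Mrpl3 at chr9:105053239-105079888.

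The 3 genes of the S18 family did not move together. Mrps18b rose, while Mrps18a (-0.00, SE 0.05, adjusted p = 0.986) and Mrps18c (0.07, SE 0.06, adjusted p = 0.437) were not called, Mrps18a holding between -0.05 and 0.07 over the alternatives. The ratio of Mrps18b to Mrps18a is not moved by library scaling. It was 0.731 to 0.87 in the WT and 1.08 to 1.26 in the Tg libraries, and the ranges of Mrps18b over Mrps18c were 1.66 to 2.22 and 2.28 to 2.96. The ratio of Mrps18a to Mrps18c overlapped, at 2.09 to 2.67 in WT and 2.06 to 2.52 in Tg. The ratio of Mrpl3 to Mrpl18, genes chosen because they moved apart, was 0.395 to 0.562 in WT and 0.677 to 0.828 in Tg and is given as a description.

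Grouped by position in the ribosome, 19 of 45 genes for proteins with a bacterial counterpart rose and 1 fell, with a median of 0.14. Of 31 genes for proteins at positions that bacterial ribosomes lack, Mrps18a and Mrps18b of the S18 family among them, 16 rose and 2 fell, with a median of 0.24. Mrpl55 and Mrps36 were placed in neither class, and the grouping was made after the values were seen, so the difference was not tested. Moving Mrps18a and Mrps30 to the large subunit, where their proteins lie, and leaving out Mrps36 gave 22 of 51 large-subunit and 13 of 26 small-subunit genes called higher.

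Levels per kilobase of annotated exon differed widely between the members, and this measure depends on the annotated exon length. In WT muscle Mrpl42 was highest at 279.1 ± 21.1 CPM per kilobase (SD, n = 8), followed in its subunit by Mrpl33 at 93.7 ± 4.98. Mrpl19 and Mrpl47 were lowest at 4.02 ± 0.304 and 3.12 ± 0.284 CPM per kilobase. In the small subunit Mrps21 led at 142.5 ± 13.1 and Mrps28 followed at 50.5 ± 6.19, a level that Mrps36 matched within its spread (50.2 ± 3.39). Mrps17 and Mrps35 were lowest at 3.53 ± 0.308 and 3.23 ± 0.297. The 2 highest genes of the large subunit and Mrps21 had log2 fold changes under 0 that were not called: -0.15 for Mrpl42 (SE 0.06, adjusted p = 0.0643, and called lower in 8 of 26 alternatives), -0.09 for Mrpl33 and -0.13 for Mrps21. Mrps28, the next highest of the small subunit, was called higher at 0.29 (SE 0.07, adjusted p = 0.00651). Of the 4 lowest genes, 3 were called higher, at 0.36 for Mrpl47, 0.31 for Mrps17 and 0.23 for Mrps35, and Mrpl19 was at 0.12 (adjusted p = 0.192).

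Per library, the median log2 ratio of the large-subunit genes to their WT mean was -0.04, -0.07, -0.14 and 0.14 in WT females and 0.05, 0.04, 0.01 and 0.02 in WT males. Tg females read 0.21, 0.14, 0.18 and 0.15 and Tg males 0.21, 0.02, 0.01 and 0.15. WT female 4 thus lay among the Tg libraries. Tg male 2 lay within the range of the WT males, and Tg male 3 (0.01) just below its lowest value (0.013). The small-subunit medians were -0.14 to 0.12 in WT and 0.04 to 0.23 in Tg, again with WT female 4 the highest WT library. WT female 4 also had the highest sum of muscle fibre markers (234400 CPM) and WT female 3, the lowest for both subunits, the highest sums of macrophage (208.2 CPM) and fibroblast markers (981.2 CPM). The part of these markers in the result was not tested. Without WT female 4 the count of members called higher rose from 35 to 44, while the count over all tested genes rose from 2344 to 2537.

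The summed CPM of the large over the small subunit, a ratio free of library scaling, was 2.15 to 2.23 in WT and 2.00 to 2.14 in Tg, with no overlap. Mrpl42 weighs heavily in that sum. Without it the ratio was 1.93 to 2.01 in WT and 1.84 to 1.95 in Tg, and the ranges overlapped.

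**Figure D4:**
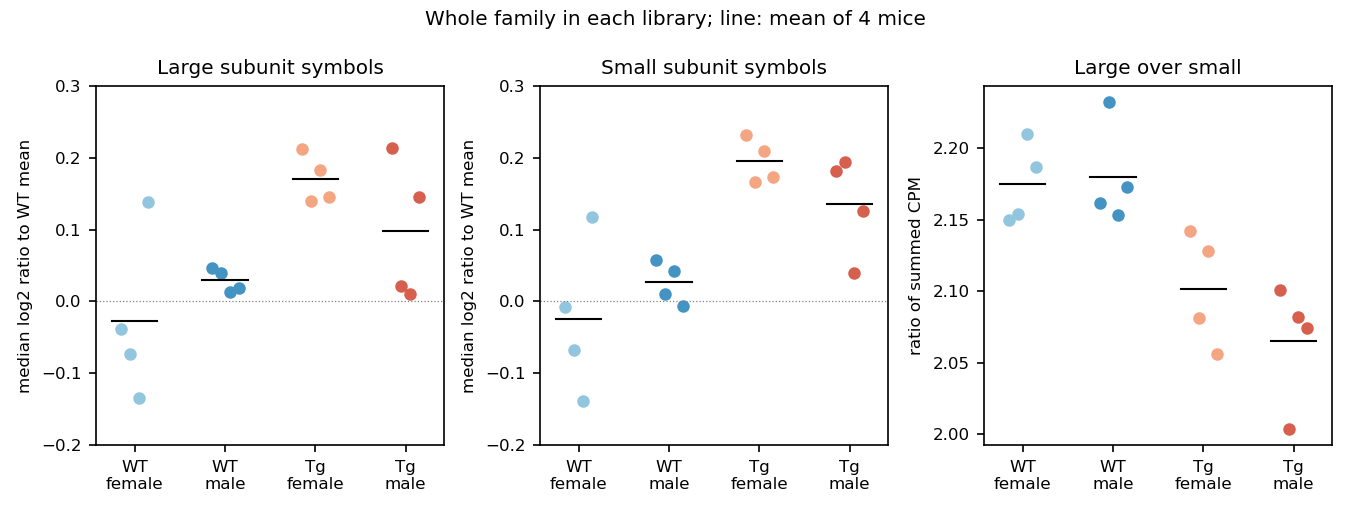
Median log2 ratio to the WT mean over the large-subunit and over the small-subunit genes, and the large over small ratio of summed CPM, in each library. WT female 4, at 0.14 in the large subunit, lies among the Tg points, and the ratio is 2.15 or more in WT and 2.14 or less in Tg.

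The next comparison took the sexes apart. In females 14 large-subunit and 9 small-subunit genes were called higher and 0 lower in each, beside 10.1% of all tested genes higher and 7.57% lower. At an unadjusted p under 0.05 in females there were 23 large-subunit and 15 small-subunit genes. The female large-subunit count was 9 without Tg female 1, Tg female 3 or WT female 1, 4 without the 4 libraries with brown adipocyte markers and 21 without WT female 4, and the small-subunit count was 15 without WT female 4. Over all tested genes, 1382 were called higher in females in the main fit. That count was 990 without Tg female 1 and 1042 without Tg female 3 or without WT female 1. It was 914 of 13827 without the 4 libraries and 1700 of 13848 without WT female 4. In males 6 large-subunit and 7 small-subunit genes were called higher, beside 9.85% of all genes, and 2 and 0 lower, beside 8.39%. The male share of the large subunit (12.2%) was close to that background. Mrpl18 and Mrpl48 were the members called lower in males, at -0.41 and -0.23. The male large-subunit count was 2 without Tg male 1, without WT male 1 or without the 4 libraries, and 3 without WT male 2, without WT male 4, without the 2 libraries rich in adipocyte markers or with RLE size factors. Over all tested genes, 1346 were called higher in males in the main fit. That count was 972 without Tg male 1, 1013 without WT male 1 and 1216 of 13827 without the 4 libraries. It was 975 to 1240 in the settings with a large-subunit count of 3. The small-subunit count was 4 without Tg male 1 or WT male 4. The 2 lower calls in males became 1 without Tg male 1, Tg male 2, WT male 2 or WT male 4. With library totals only the male count called higher was 12 in each subunit, and the median over all genes moved from 0.03 to 0.13.

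The genes called higher in both sexes were Mrpl3, Mrpl23, Mrpl24 and Mrpl44, and Mrps2, Mrps9, Mrps18b, Mrps23, Mrps27 and Mrps30. The share of all tested genes called higher in both sexes was not taken, so this count has no background beside it. Across genes the female and male differences, which come from separate mice, had a Pearson r of 0.785 over 49 large-subunit and 0.808 over 29 small-subunit genes, beside 0.662 over all tested genes. Genes are not independent replicates and share the scaling of each library. The sign was opposite in 24.5% of the large-subunit and 24.1% of the small-subunit genes, near the 27.6% of all tested genes.

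**Figure D5:**
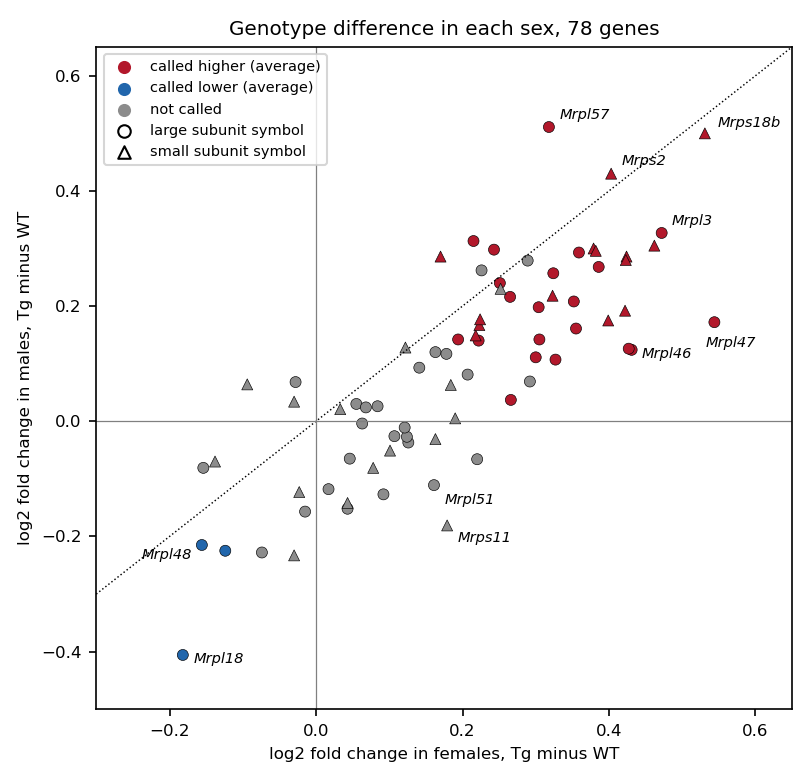
Log2 fold change in males against that in females for the 78 genes; the dotted line marks equal changes. Mrps18b lies near the line at 0.53 and 0.50, Mrpl46 and Mrpl47 lie below it, and Mrpl18 is lowest in males at -0.41.

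No member was called in the test of whether the genotype effect differed between the sexes, in which 0.00732% of all genes were called, with 3 large-subunit and 2 small-subunit genes at an unadjusted p under 0.05 in edgeR and 0 called by DESeq2 or limma-voom. The male effect was below the female effect in 66 of 78 genes (84.6%), beside 45.4% of all tested genes and 73 of 77 respiratory chain subunits. Mrpl51, the member with the smallest p, had an interaction of -0.27 (SE 0.11, adjusted p = 0.607), from 0.16 in females to -0.11 in males. WT females read 107.1, 97.6, 103.7 and 121.5 CPM and Tg females 128.5, 117.6, 125.8 and 108.8 CPM, overlapping groups. The same values in males were 125.2, 120.5, 127.1 and 116.8 CPM for WT and 122.2, 110.0, 107.4 and 113.9 CPM for Tg.

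Between males and females of one genotype 0 members were called in either genotype by edgeR, beside 3.67% of all genes in WT and 0.527% in Tg. At an unadjusted p under 0.05 there were 9 members in WT and 6 in Tg, while DESeq2 called 2 in WT and limma-voom 0. The member closest to a call in WT was Mrpl46, higher in males by 0.30 (SE 0.09, adjusted p = 0.0812), with 13.1 to 14.1 CPM in WT females and 14.8 to 18.2 CPM in WT males. In Tg it was Mrps36, at -0.22 (SE 0.07, adjusted p = 0.254), with 34.1 to 38.1 CPM in Tg females and 27.9 to 32.2 CPM in Tg males. These groups did not overlap, but each was chosen for its p among 78.

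Many of these genes start near a gene transcribed the other way. Some of these partners start upstream of the member, and others, such as Tcp1 for Mrpl18, start inside it, so that the genes overlap. Within 1000 base pairs, 48.98% of the large-subunit and 31.03% of the small-subunit genes had a partner transcribed the other way, beside 13.13% of 17080 protein-coding genes in the files. The 33 members with a partner form 32 pairs, since Mrpl46 and Mrps11 are each other's partner, with log2 fold changes of 0.28 and -0.00. Of these pairs, 2 had both genes called higher (Mrps27 with Ptcd2 and Mrpl54 with Apba3), and in 12 the member rose while the partner was not called. In 5 pairs the partner was not tested. Beside members not called, the partners Mtbp (1.01, of Mrpl13), Fau (0.215, of Mrpl49) and Sars2 (0.248, of Mrps12) were called higher and Hira (-0.315, of Mrpl40) lower. Over all tested genes 17.2% were called higher and 13.3% lower, and the same counts were not taken for pairs of other genes. Mrps18b starts 45 base pairs from Ppp1r10, a regulatory subunit of protein phosphatase, whose log2 fold change was -0.24 (SE 0.11, adjusted p = 0.122).

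The other genes of mitochondrial translation were described from lists chosen with earlier results known, to be read against the 17.2% of all tested genes called higher and 13.3% lower. Of 5 ribosome proteins under other symbols 2 rose, Gadd45gip1 at 0.62 (SE 0.11, adjusted p = 0.000405) and Ptcd3 at 0.16. Of 26 assembly factors 9 rose (34.6%) and 0 fell (15 with an unadjusted p under 0.05), with a median of 0.11, among them the GTPase Mtg1 (0.40, from 20.4 ± 1.77 to 26.97 ± 1.98 CPM, SD, n = 8 each) and the RNA methyltransferases Mrm1 (0.43), Mettl15 (0.66) and Mrm3 (0.57). Of 19 translation factors 6 rose (31.6%) and 1 fell, with a median of 0.01: the membrane insertases Oxa1l (0.30) and Cox18 (0.36) and the messenger-binding Lrpprc (0.24) rose, and Guf1, an elongation factor, fell by 0.20. Of 20 aminoacyl-tRNA synthetases, which charge mitochondrial transfer RNA, 7 rose (35%) and 0 fell, with a median of 0.13, led by Ears2 (0.69, from 9.20 ± 0.599 to 14.9 ± 1.57 CPM, SD, n = 8 each).

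Of 13 genes for mitochondrial DNA transcription and replication 1 rose, Tefm, the elongation factor of the mitochondrial RNA polymerase (0.29), a share of 7.69% that is below the background, and the median was 0.02. Of 13 regulators of mitochondrial biogenesis 4 rose (30.8%): Esrrg (2.52), Myc (1.66), Ppargc1b (0.67) and Pprc1 (0.47). Nrf1 (0.16), Gabpa (0.11) and Yy1 (-0.09), genes for factors that read the NRF1, ETS and YY1 letters, were not called. Of 85 protein genes of the cytosolic ribosome 76 rose (89.4%), 0 fell (78 with an unadjusted p under 0.05), and the median was 0.41. Of 77 respiratory chain subunits encoded in the nucleus 14 rose (18.2%) and 7 fell (9.09%), close to and below the background, with a median of 0.03, the largest of the named ones being Cox6a2, the muscle form of a cytochrome oxidase subunit, at 1.34. These medians stand beside 0.15 and 0.18 for the large and small subunit of the mitochondrial ribosome, and the difference between lists was not tested.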

How the data were processed

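Stranded poly(A) libraries of quadriceps RNA were sequenced as paired-end reads, per the labels' protocols. The values deposited by the authors carry no stated unit and were taken as estimated counts per gene symbol; tools listed in the submitters' processing notes are bcl2fastq, TopHat2, Bowtie2 and cutadapt 1.2.1, with build mm10, and the counting program is not given in the sources used here. Counts were rounded and tested in R 4.3.3 with edgeR 4.0.16 (TMM scaling, filterByExpr with minimum count 10, robust quasi-likelihood F test, 1 mean per group of 4, all 16 libraries). Calls were made below 0.05 after Benjamini-Hochberg adjustment over all 13666 tested genes, and adjusted p values are from edgeR unless another tool is named. The biological coefficient of variation was 0.201. DESeq2 1.42.0, limma 3.58.1 (voom), other scalings and filters, a covariate and left-out libraries were alternatives. Levels are counts per 1000000 of TMM-scaled library size.

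Libraries of 1 group correlated at 0.955 to 0.992 (log2 CPM), and none looked like another one deposited again. Replicates are 4 animals per sex and genotype, per the labels. Members, lists and the rule for genes given in full (the 6 largest called increases and 4 largest called decreases per subunit, the Mrps18 family, the 2 highest and lowest levels per subunit, the smallest p of each sex contrast, and up to 4 called genes per other list) were chosen with earlier results of these data known. The genes with separated groups, the partners with a nearby start and the other calls were named after their values were seen. Gene positions and exon lengths are from GENCODE M21, in which all 78 symbols matched 1 gene.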

Additional observations from a re-analysis of the deposited data

Results flagged for a closer look

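Tests for a library far from the other 3 of its group covered library summaries and the 27 members picked by the rule for genes given in full. Of 128 such tests 5 gave one, at a limit of 1 in 20, and the tests share libraries. Other members were not tested. Among them Mrps24 was 46.4 CPM in Tg male 2, beside 28.8, 26.9 and 28.4 CPM in the other Tg males. Tg male 2 was also the highest Tg male for Mrps34, Mrpl53 and Mrpl17, and the lowest for some other members. Mrps18b was 40.2 CPM in WT female 4 (31.9 to 33.1 CPM in the others). Mrps27 was 33.5 CPM in Tg female 4 (35.6 to 35.7 CPM in the others). Tg male 2 was low for both Mrpl47, at 8.04 CPM (13.5 to 14.04 CPM in the others), and Mrps36, at 27.9 CPM (31.7 to 32.2 CPM in the others). Mrps30 was 29.9 CPM in Tg male 3 (31.03 to 31.04 CPM in the others).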

How the results depend on the processing

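Of the 27 members picked by the rule for genes given in full, no called one changed sign under the 26 alternatives that were run. Signs of the other called genes were not compared one by one. Mrps18a, not called at -0.00, was 0.07 with library totals only. For the averaged effect, the counts called higher were 15 to 27 (large) and 13 to 17 (small) on leaving out each replicate in turn, and the counts called lower were 2 to 4 and 0 to 0. Without the 4 libraries with brown adipocyte markers, an alternative chosen after seeing the data, 10 large and 9 small genes were called higher, beside 1966 of 13827 tested genes. With library totals only, 1 large gene was called lower instead of 3, and 70.9% of all calls were higher instead of 56.4%. In females the large count was 9 to 21 and the small count 9 to 15 on leaving out each replicate (9 large without Tg female 1, Tg female 3 or WT female 1, and 15 small without WT female 4), and the large count was 4 without the 4 libraries. Over all tested genes the female count called higher without Tg female 1, Tg female 3 or WT female 1 was 990 to 1042 instead of 1382. In males the large count was 2 to 8, the large count called lower 1 to 3 and the small count 4 to 9 on leaving out each replicate (2 large without Tg male 1 or WT male 1, 4 small without Tg male 1 or WT male 4). Over all tested genes the male count called higher without Tg male 1, WT male 1 or WT male 4 was 972 to 1013 instead of 1346. In males the large count called higher was 3 with RLE size factors, 3 without the 2 libraries rich in adipocyte markers, 2 without the 4 libraries and 12 with library totals only, where the small count was also 12 and 74.4% of all male calls were higher instead of 54%. The large count called lower in males was 1 with library totals only, 1 without a filter and 4 with DESeq2. Members called between the sexes in WT numbered 2 with DESeq2 and 0 to 1 on leaving out each replicate (1 without Tg male 2 or WT female 4). Of the other genes of mitochondrial translation, 1 was called lower, 2 with RLE size factors, 0 with library totals only, 3 with DESeq2, 2 with a CPM filter, 2 without the 2 libraries and 1 to 3 on leaving out each replicate (3 without WT male 3). For the left-out libraries fewer samples entered the fit; for the rest the cause was not tested. No paired analysis was possible because the labels give no replicate numbers that link mice, and littermates are not named. Standard errors of the members' averaged log2 fold changes were 0.04 to 0.13, so a gene that was not called may still differ.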
